A study of Arabidopsis thaliana with 6 samples.

Results

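Sense small RNAs of the 25S ribosomal RNA (rRNA) were the largest block of sequences in small RNA libraries made from Arabidopsis thaliana leaves, of the wild type (WT) and of rdr1 mutants. Members were the sequences of the normalised table that match the plus strand of chromosome 2 (TAIR10.1) without mismatch, with the midpoint of the match in a window of 4104 nt that begins 189 nt after the last base of the annotated 5.8S gene. There were 7694 of them among 18124 listed sequences, or 42.5%. Each genotype had 3 libraries from untreated leaves, and the plants of both were kept at 22 °C with daylight for 16 h. Neither the rdr1 allele nor the age of the plants is in the labels, which also leave unsaid whether replicates were different plants. Sequences that match the chloroplast genome, which mark green tissue, held between 14.7% and 19.5% of the listed value, and 0 of 4 pollen-enriched miRNAs (miR845a, miR845b, miR2939 and miR5021) were listed.

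The 25S rRNA is the long RNA of the large ribosomal subunit. It is cut, together with the 18S and 5.8S rRNAs, from a precursor that RNA polymerase I makes from tandemly repeated genes, and nucleases trim its ends to the mature form. Fragments of the sense strand can come from the turnover of rRNA. RDR1, the enzyme whose gene is mutated in rdr1, makes a complementary strand on an RNA template, giving double strands that Dicer-like enzymes can cut into small interfering RNAs. The rRNA is known as a template for such copying in Arabidopsis plants with faulty rRNA processing. The study asked which small RNAs differ in the mutant.

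Much of the value lay in families of sequences that share an end, and 4 of these ends carried the patterns described here. In the reference windows below (TAIR10.1 chromosome 2, plus strand, 5′ to 3′), capitals mark the first 5 bases of fragments that begin at the site or the last 5 bases of fragments that finish there.
Shared 5′ end at the first base of the window (chr2:6104-6164): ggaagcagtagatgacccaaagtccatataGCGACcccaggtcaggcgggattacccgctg
Shared 3′ end at 8817 (chr2:8787-8847): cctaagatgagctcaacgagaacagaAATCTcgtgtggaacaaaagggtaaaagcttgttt
Shared 3′ end at 8121 (chr2:8091-8151): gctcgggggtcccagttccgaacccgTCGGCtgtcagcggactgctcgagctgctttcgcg
Shared 3′ end at 9520 (chr2:9490-9550): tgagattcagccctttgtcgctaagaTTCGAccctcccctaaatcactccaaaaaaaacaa

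For the 3 families with a shared 3′ end the most abundant sequence of each is shown from the deposited table, and for that at 9520 also the most abundant of 17 to 19 nt, to show how the fragments are nested. Capitals mark the 5 bases at the shared 3′ end.
28 nt, 9493 to 9520: gattcagccctttgtcgctaagaTTCGA
19 nt, 9502 to 9520: ctttgtcgctaagaTTCGA
24 nt, 8794 to 8817: tgagctcaacgagaacagaAATCT
31 nt, 8091 to 8121: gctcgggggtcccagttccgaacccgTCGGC

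Values are normalised read counts on a common scale of 8000000 reads of a library total, on which a single read was worth between 0.804 and 1.71. The library totals behind this scale ran from 4668411 to 9955668 reads, and the members held between 281359 and 689420 reads. Members had 6765 sequences above 0 in all 6 libraries. No listed sequence stayed under 20.07 in every library, so rarer fragments were not analysed here. The libraries differed in fragment length within each genotype, with WT replicate 1 rich in long fragments and rdr1 replicate 1 rich in short ones. Where these 2 libraries hold the extremes of a comparison, values without them are also given.

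The fragments reached from a base before the window to 9523 and covered 3323 of the 3390 positions from the first base of the window to 9523. The longest stretch with no member ran from 7525 to 7562, 38 nt. Of the 21 bins of 200 nt in the window, the last 4, which begin at 9534, held 0 members. The annotation of TAIR10.1 places the 18S gene (AT2G01010) and the 5.8S gene (AT2G01020, 5782 to 5945) upstream and names no 25S gene. Inside the covered stretch it gives 3 other loci on the plus strand. AT2G01021 (6571 to 6672, protein-coding) contained 278 members and 3.08% of their value, AT2G03865 (7090 to 7505, noncoding) 953 members and 7.20%, and AT2G03875 (7669 to 9399, noncoding) 3816 members and 47.0%. All 7694 sequences also matched the other annotated rRNA unit, on chromosome 3 (14197677 to 14204208, a stretch of the same length from the start of the 18S gene AT3G41768), so that the copies cannot be told apart. Of the members, 7084 had 2 matches in the genome, 604 had 3 and 6 had 4.

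The 3′ ends were more concentrated than the 5′ ends. The 5 most abundant 3′ ends held 42.7% of the summed value and the 5 most abundant 5′ ends 14.8%. It took 15 of 2172 positions of 3′ ends to reach 50% of the value, against 42 of 2192 positions of 5′ ends. In the sense fragments of 18S rRNA the corresponding shares were 21.8% and 14.6%, and in those of 5.8S rRNA and the spacers 69.6% and 58.4%. These shares are a description, with no test of the difference.

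**Figure D1:**
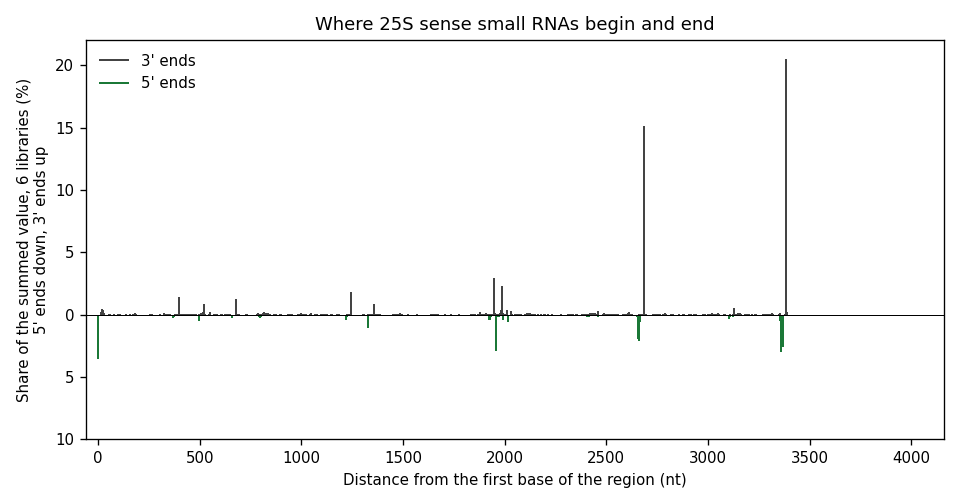
Share of the summed value of the 6 libraries (%) that begins (5′ ends, down) or finishes (3′ ends, up) at each position, plotted against the distance from the first base of the window in nt. The tallest 3′ ends, at distances of 2683 and 3386 nt, held 15.2% and 20.5%, and the tallest 5′ end, at distance 0, held 3.56%.

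The 3′ end at 9520 was the most abundant. Its 13 sequences summed to 104970, 133319 and 81669 in WT replicates 1 to 3 and to 117763, 104196 and 80695 in rdr1 replicates 1 to 3, a range in which the genotypes overlapped. In its listed lengths, which leave out 22 to 26 nt, it took a similar share of the 25S value in every library, from 18.2% to 21.7%. Of the value that finished within 2 nt of this position, 95.9% finished exactly on it, 2.39% a base earlier and 0.885% a base later. Fragments that ran past 9520 held 0.256% of the 25S value.

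The 3′ end at 8817, inside AT2G03875, was as sharp and lay 703 nt upstream. It held 18 sequences, 1 for each length from 17 to 34 nt. They summed to 147505, 83410 and 50551 in WT and to 63530, 72828 and 43279 in rdr1. WT replicate 1 stood above the other 5 libraries, at 26.9% of its 25S value against 9.82% in rdr1 replicate 1, the lowest. Of the value within 2 nt of this end 99.97% finished exactly on it, and of the value that finished at or ran across it, 0.686% ran across. The ratio of rdr1 to WT was 0.638, and 0.894 without WT replicate 1.

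A pair of 3′ ends near the middle of the gene, at 8083 and 8121, differed in their shape. That at 8083 had 16 sequences spread over 17 to 34 nt, with sums of 21324, 13639 and 10816 in WT and 19376, 13240 and 10533 in rdr1, so that the genotypes overlapped closely. At 8121 a single fragment of 31 nt, which begins at 8091, made up between 52.0% and 92.1% of the value. It had 18035, 25006 and 3248 in WT and 1631, 5463 and 8052 in rdr1. Its lowest value was in rdr1 replicate 1 and its highest in WT replicate 2, and WT replicate 3 lay among the rdr1 libraries. Its log2 fold change was -1.45 (SE 0.74, 95% interval -2.91 to 0.00491, limma adjusted p = 0.753), which did not pass the test, and -0.44 without both first libraries.

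The 3′ end at 7380, inside AT2G03865, resembled that at 8817 in sharpness. Of the value within 2 nt, 99.6% finished exactly on 7380, and 2.72% of the value at the site ran across it. Its 17 sequences summed to 13953, 9632 and 5939 in WT and to 11467, 8640 and 4972 in rdr1. In all 6 libraries 27 nt was the most abundant length there.

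Among 5′ ends, the first base of the window had the highest mean over the 6 libraries and was the sharpest of those named. The 14 sequences that begin there summed to 11616, 15591 and 15953 in WT and to 31080, 21813 and 12233 in rdr1. Of the value that began within 2 nt, 99.2% began exactly on it, and 1 sequence began a base upstream of it. The library with the highest value was rdr1 replicate 1. In WT alone the mean at the first base, 14387, was below those at 8091 (20645), 9493 (18449) and 9494 (15001). For the first base the ratio of rdr1 to WT was 1.51, and 1.08 without both first libraries. By contrast, the other abundant 5′ ends, at 9493, 9494 and 9502, belonged to the family that finishes at 9520, and the 5′ end at 8091 to the 31-nt fragment.

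Fragments with a shared end formed a ladder of lengths, and where the ladder peaked depended on the end and on the library. At 8817 the ladder had a single peak, at 24 or 25 nt in every library, with mean lengths between 23.6 nt in rdr1 replicate 1 and 25.7 nt in WT replicate 1. At 9520 the table lists lengths of 17 to 21 nt and of 27 to 34 nt, and fragments of 22 to 26 nt with this end were not analysed here. Among the listed lengths the most abundant was 28 nt in WT replicate 1, with 24.9% of the value at this end, and 18 nt in rdr1 replicate 1. Lengths of 17 to 19 nt held 8.30% of the value at this end in WT replicate 1 and 56.3% in rdr1 replicate 1. The other 4 libraries had both short and long forms, with 28 nt between 11.8% and 15.2%. At 8121 lengths of 21 to 26 nt, and at the first base of the window lengths of 23 and 26 nt, were not analysed here for the same reason. Length shares, end shares and sums throughout are therefore those of the listed lengths.

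**Figure D2:**
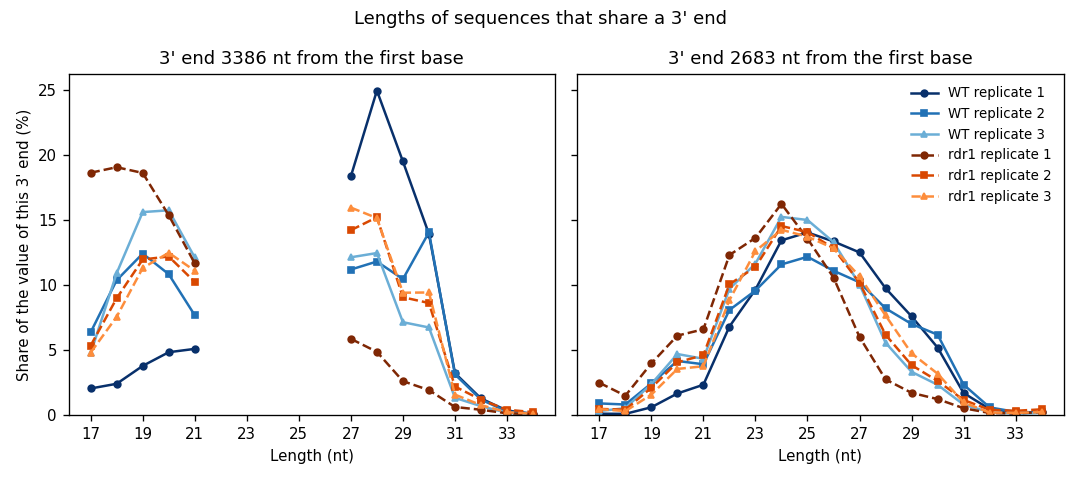
Share of the value of a shared 3′ end (%) by fragment length in nt, for the ends 3386 nt (left) and 2683 nt (right) from the first base of the window, with 1 line per library and breaks where a length was not listed. The left ladder is weighted to 28 nt in WT replicate 1 (24.9%) and peaks at 18 nt in rdr1 replicate 1, while the right ladder peaks at 24 or 25 nt in all 6 libraries.

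The same sequences showed this shift one by one. The 28-nt sequence that finishes at 9520 had 26161, 15745 and 10176 in WT and 5748, 15843 and 12221 in rdr1, while the 19-nt sequence with the same end had 3992, 16556 and 12742 in WT and 21910, 12468 and 9130 in rdr1. WT replicate 1 and rdr1 replicate 1 held the extremes in both, in opposite order, and the other 4 libraries overlapped. The 24-nt sequence that finishes at 8817 had 19817, 9664 and 7701 in WT and 10311, 10584 and 6164 in rdr1. In limma the log2 fold changes were -0.64 (SE 0.81) for the 28-nt, 0.52 (SE 0.80) for the 19-nt and -0.38 (SE 0.78) for the 24-nt sequence, with adjusted p-values of 0.753, 0.753 and 0.770. Without both first libraries the signs of the first 2 turned, to 0.14 for the 28-nt and -0.44 for the 19-nt sequence, and the 24-nt sequence was at -0.10.

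Over all members, the summed value did not differ between the genotypes beyond the spread of their libraries. It was 548119, 613570 and 378264 in WT replicates 1 to 3 and 646743, 482149 and 372842 in rdr1 replicates 1 to 3. The highest and the lowest library were both rdr1, and the means were 513318 ± 121452 and 500578 ± 137877 (SD, n = 3 each), a ratio of 0.975. As a share of all listed value the members held 23.2% ± 5.08 (SD, n = 3) in WT and 23.1% ± 3.73 (SD, n = 3) in rdr1. With a scaling by the median of ratios to all listed sequences the ratio of sums was 0.643, against 0.975 as deposited. This scaling divided WT replicate 1 by 0.532, rdr1 replicate 1 by 1.80 and the other libraries by 0.892 to 1.36. The 0.643 therefore leans on WT replicate 1, and its value without both first libraries was not computed. As deposited, the ratio ran from 0.833 to 1.10 over the libraries left out singly. With 3 libraries against 3, an exact permutation test cannot give a p below 0.1, so no such test was made on these sums. In bulk leaf samples, fewer cells of a type and less RNA per cell cannot be told apart.

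The libraries differed widely in the length of their 25S fragments. Sequences of 17 to 19 nt made up 47.3% of the members and 26.0% of their value, those of 20 to 24 nt 26.7% and 31.9%, those of 25 to 27 nt 5.47% and 16.6%, and those of 28 to 34 nt 20.5% and 25.5%. The 28 to 34 nt class held 44.3%, 33.2% and 17.9% of the 25S value in WT replicates 1 to 3 and 6.39%, 23.7% and 28.3% in rdr1 replicates 1 to 3. WT replicate 1 was the highest and rdr1 replicate 1 the lowest, with the other 4 libraries of both genotypes between them. The 17 to 19 nt class ran the other way, with 6.39%, 25.8% and 26.7% in WT and 47.7%, 22.9% and 20.9% in rdr1. The 95% Wilson intervals of such single-library shares were at most 0.353 percentage points wide. They cover counting error only, since reads of a molecule copied by PCR were not told from separate molecules.

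The difference between the genotypes in the 28 to 34 nt share was smaller without the 2 extreme libraries. Fragments of 28 to 34 nt averaged 31.8% ± 13.3 (SD, n = 3) of the 25S value in WT and 19.5% ± 11.6 (SD, n = 3) in rdr1. The difference was -12.4 percentage points, -6.10 without WT replicate 1 and -5.83 without rdr1 replicate 1. Without both first libraries it was 0.43 percentage points. They hold the highest and the lowest share, so leaving both out must narrow the difference. Listed sequences outside the 25S sense set moved alike: their 28 to 34 nt share was 31.9%, 23.9% and 8.25% in WT and 4.31%, 13.3% and 15.1% in rdr1. In 18S sense fragments it was 43.2%, 29.5% and 13.2% in WT and 5.47%, 20.6% and 24.6% in rdr1. The order of the 6 libraries by this share was the same in the 25S and the 18S fragments. The part of this shift, shared by the whole library, in the values of single 25S sequences was not tested.

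**Figure D3:**
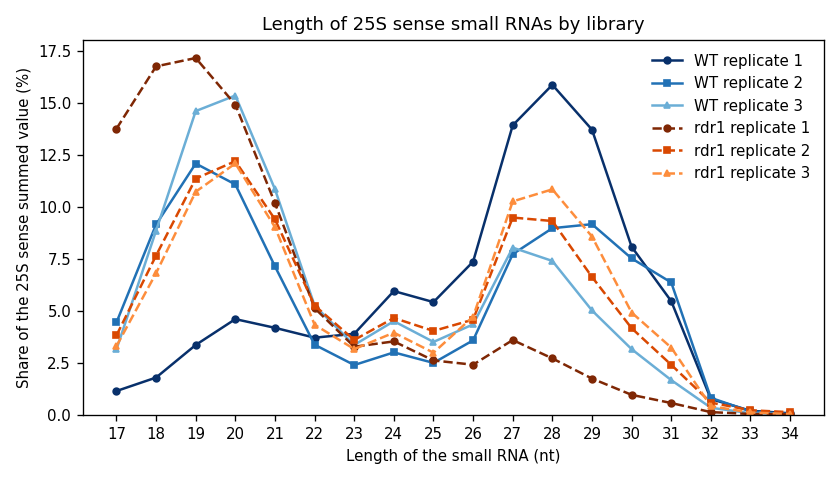
Share of the 25S sense summed value (%) by fragment length in nt, with 1 line per library (WT solid, rdr1 dashed). WT replicate 1 peaks at 28 nt (15.9%) and rdr1 replicate 1 at 19 nt (17.2%), and the other 4 libraries peak at 19 or 20 nt with a lower rise at 27 to 29 nt.

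Fragments were spread unevenly along the gene. In the 17 bins of 200 nt that held members, the number of sequences ran from 240 to 820, and the 2 most abundant bins held 40.9% of the value. The bin from 9334 to 9533, which contains the 3′ end at 9520, was the highest, with 119257, 151962 and 95098 in WT and 141358, 121374 and 92999 in rdr1. Next was the bin from 8734 to 8933, which contains the end at 8817, with 155743, 95148 and 58135 in WT and 79172, 82637 and 50400 in rdr1. The bin from 7934 to 8133, with the ends at 8083 and 8121, had 65778, 77072 and 37764 in WT and 66377, 47703 and 43261 in rdr1. The bins from 8534 to 8733 and from 6534 to 6733 followed, with 5.84% and 5.41% of the 25S value. The lowest bin with members ran from 7734 to 7933 and had 4286, 5812 and 3743 in WT and 8565, 4603 and 3737 in rdr1. In each of these bins the genotypes overlapped.

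**Figure D4:**
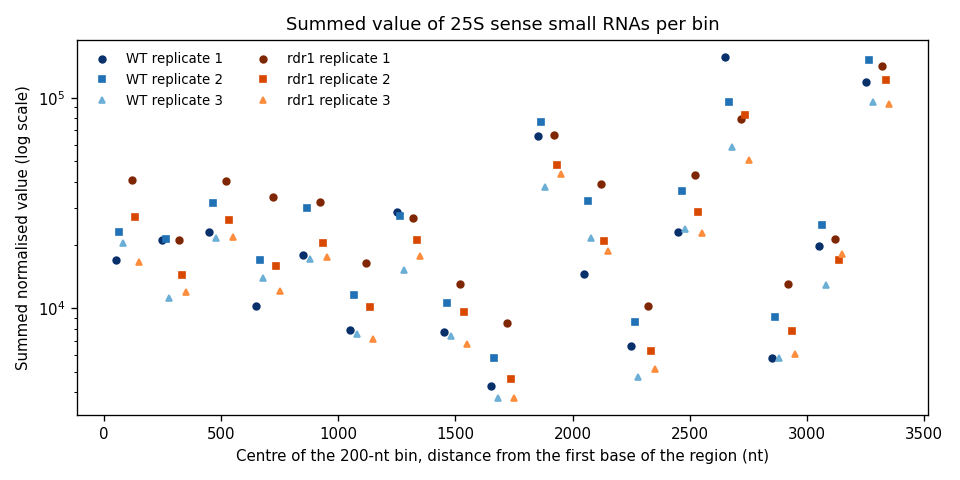
Summed normalised value (log scale) of 25S sense small RNAs in each of the 17 bins of 200 nt with members, by distance of the bin centre from the first base of the window in nt, with 1 point per library. The points of WT (blue) and rdr1 (orange to brown) overlap in all 17 bins, and WT replicate 1 stands highest in the bin with the end at 2683 nt.

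The profile along the gene was alike in 5 libraries. The bin shares of pairs of libraries without WT replicate 1 correlated across the 17 bins with Pearson r between 0.980 and 0.996, and pairs with WT replicate 1 with r between 0.842 and 0.918. Across the 7694 single sequences (log2 of the value plus 1) the same pairs had r between 0.401 and 0.882 and between 0.0710 and 0.803. Bins and sequences of a library share its depth and its fragment lengths and are not independent, so these are descriptions. In WT replicate 1 the bin with the end at 8817 held 28.4% of the 25S value, against 12.2% to 17.1% in the other libraries. By share of the 25S value the genotypes stood apart in 1 of the 17 bins, from 8934 to 9133. It held 1.06%, 1.48% and 1.54% in WT and 2.02%, 1.61% and 1.63% in rdr1. This count by share was not made over the bins of the whole table.

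Bins and sequences were compared between the genotypes with limma, a linear model that shares the estimate of spread across features, on log2 of the value plus 1. Adjusted p-values are Benjamini-Hochberg over all features of the whole table, and called means an adjusted p under 0.05. Of the 17 bins, 0 were called, against 2.89% of the 2909 strand-specific bins tested in the whole table, and 0 had an unadjusted p under 0.05, against 7.39% of all bins. On recovered reads edgeR called 0, against 3.75% of all bins, and DESeq2 0, against 2.37%. At an unadjusted p under 0.05 both tools had 0 of the 17, against 11.4% of all bins with edgeR and 7.67% with DESeq2. By summed value the groups did not overlap in 0 of the 17 bins, against 7.84% of all bins. The log2 fold changes ran from -0.46 (SE 0.48) for the bin with the end at 8817 to 0.48 (SE 0.48) for the bin from 6734 to 6933, and the lowest adjusted p was 0.722. The ratio of rdr1 to WT was 0.687 in the first of these bins and 1.5 in the second, and 0.868 and 0.908 without both first libraries. For the bin with the end at 9520 it was -0.04 (SE 0.45), with a 95% interval of the fold from 0.505 to 1.88. Over the 17 bins the limits of these log2 intervals reached from -1.48 to 1.49.

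Splitting the bins by length class gave 68 features, of which 0 were called, against 1.84% of 4631 in the whole table, and 0 had an unadjusted p under 0.05, against 6.97%. The groups did not overlap in 0 of the 68, against 6.67%. EdgeR called 0, against 1.97% of all features, and DESeq2 0, against 1.43%. At an unadjusted p under 0.05 each had 1 of the 68, against 9.05% of all with edgeR and 6.82% with DESeq2. With all 6 libraries the direction went mostly with length class. The value was higher in rdr1 in 17 of 17 bins at 17 to 19 nt, with a median log2 fold change of 0.82, and in 16 of 17 at 20 to 24 nt, with a median of 0.42. At 25 to 27 nt it was lower in 15 of 17 bins, with a median of -0.30, and at 28 to 34 nt in 17 of 17, with a median of -0.85. Bins of a library are not independent of each other. Without both first libraries the median was -0.43 at 17 to 19 nt, where 0 of 17 bins were then higher, -0.12 at 20 to 24 nt, 0.20 at 25 to 27 nt and -0.07 at 28 to 34 nt, where 6 of 17 were higher. These 2 libraries were picked for their extreme lengths, so the medians without them are no separate evidence on direction. The largest difference was that of the 28 to 34 nt fragments in the bin with the end at 8817, at -1.21 (SE 0.69, limma adjusted p = 0.646), and -0.31 without both first libraries.

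**Figure D5:**
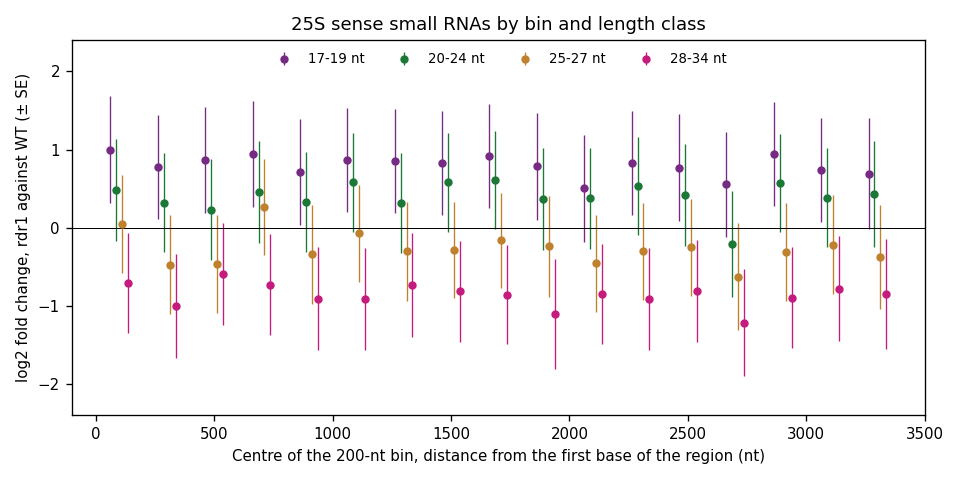
Log2 fold change of rdr1 against WT from limma (points, with bars of 1 SE) for each bin of 200 nt and length class, by distance of the bin centre from the first base of the window in nt. Points at 17 to 19 nt lie above 0 and points at 28 to 34 nt below 0 in all 17 bins with all 6 libraries. Without both first libraries (not drawn), 0 of 17 bins were above 0 at 17 to 19 nt and 6 of 17 at 28 to 34 nt. These 2 libraries were picked for their extreme lengths. Of the 68 features 0 were called.

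Among single sequences, 7655 members had a mean of at least 5 and were tested, and 39 were not. Of those tested 0 were called, against 0.216% of the 18043 sequences tested in all, and the lowest adjusted p was 0.753. At an unadjusted p under 0.05 there were 62 members, 0.810%, against 2.45% of all sequences. On recovered reads edgeR called 0 members, against 0.371% of all sequences, and DESeq2 called 1, against 0.787%. At an unadjusted p under 0.05 edgeR had 153 members, 2.0%, against 3.35% of all, and DESeq2 424, 5.54%, against 6.97%. The member called by DESeq2 was a 30-nt sequence (9402 to 9431), named after its value was seen, ccgagcggcgggtagaatcctttgcagacg. It had 32.0, 27.6 and 5.62 in WT and 1.25, 0 and 2.42 in rdr1, low values throughout, with a DESeq2 adjusted p of 0.0231 and a limma adjusted p of 0.753. Its groups did not overlap. Only WT values of this sequence reached the level, given above, under which no listed sequence stayed in every library. Its listing therefore depended on the same WT values that the call and the lack of overlap rest on. The effect of this selection on the call was not tested.

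The 3 values of each genotype stood fully apart in 293 members, 3.83%, against 5.29% of all sequences tested. Higher in rdr1 there were 215 members, 2.81%, against 2.98% of all. Lower in rdr1 there were 78 members, 1.02%, against 2.31% of all. By length, 91 higher members had 17 to 19 nt (2.52% of those tested, against 2.51% of all sequences of that class). At 20 to 24 nt there were 107 (5.21% against 5.66%). There were 16 at 25 to 27 nt (3.80% against 1.82%) and 1 at 28 to 34 nt (0.0635% against 0.0269%). The lower members were 0 at 17 to 19 nt (0% against 0.165%) and 2 at 20 to 24 nt (0.0973% against 3.58%). At 25 to 27 nt there were 12 (2.85% against 3.15%) and at 28 to 34 nt 64 (4.06% against 4.22%). Without both first libraries, with 2 against 2, 94 members of 17 to 19 nt stood apart as higher (2.61% against 2.56%) and 885 as lower (24.6% against 25%). At 28 to 34 nt 60 were then higher (3.81% against 3.69%) and 69 lower (4.38% against 4.49%). The median log2 fold change of members was 0.89 at 17 to 19 nt, 0.60 at 20 to 24 nt, -0.37 at 25 to 27 nt and -0.86 at 28 to 34 nt. Over all sequences tested in the same classes it was 0.87, 0.47, -0.43 and -0.89. Without both first libraries, which were picked for their extreme lengths, the members had -0.37, -0.14, 0.26 and -0.09, beside -0.36, -0.12, 0.19 and -0.09 for all.

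The bases at the ends of the fragments were not used to choose them. At 20 to 24 nt, the size of Dicer products, 19.8% of the 25S value began with T (18.2% to 25.8% over the libraries), against 60.3% (56.3% to 63.0%) of the listed value outside the set, which includes the miRNAs. C began 34.3% of the 25S value of this size and 5.26% of the value outside. At 25 to 27 nt A began 50.7% of the 25S value, and at 28 to 34 nt G began 45.5%. The reference sequence from the first base of the window to 9523 consists of 23.7% A, 24.4% C, 31.2% G and 20.6% T. Counted over distinct sequences, the first base was A in 23.2%, C in 27.3%, G in 26.6% and T in 22.9% of members. Since a few shared ends carry much of the value, the shares by value rest on few positions. They also leave out lengths not listed at these ends, among them 22 to 26 nt at 9520.

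Antisense fragments, which need a copied strand or transcription of the other strand, came to 1 listed sequence over the same stretch. It had 22 nt (9475 to 9496) and overlapped, on the other strand, fragments that finish at 9520, with 49.5, 78.3 and 37.8 in WT and 36.4, 6.85 and 38.8 in rdr1. Its genotypes overlapped.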

How the data were processed

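Small RNAs were sequenced from leaf RNA extracted with TRIzol, and libraries were made with HD adapters and read as 50-nt single ends (Illumina HiSeq), per the labels' protocols. The submitters' processing notes name TAIR10 as the build. For trimming, aligner, filters and the normalisation method, the steps were not given in the sources used here. In the table the deposited signal is a normalised read count per sequence and library. In each library 100% of the values were whole multiples of a step, to within 0.01 of a read, and the step is 8000000 divided by a whole number, taken as the library total.

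Sequences were matched without mismatch to RefSeq TAIR10.1. Because the deposited signal is not raw counts, limma (empirical Bayes with trend, two-sided) was fitted to log2(value + 1), which understates changes of low values, with a mean of at least 5 required. It was fitted over all sequences, over strand-specific bins of 200 nt and over bins by length class, always on the whole table. Sequences of the chromosome 2 rRNA unit were put once in a bin and others were divided equally over their matches. Its intervals lean on the spread shared between features. EdgeR and DESeq2 on recovered reads (rounded for bins) were alternatives. The spread behind the p-values is that between these libraries and may be technical. Replicates of a genotype differed beyond sampling noise (chi-square over degrees of freedom from 7.57 to 45.7). Named sequences were taken from the 3 most abundant members of each length class and from called members, and not all of these are given. Named bins were the 5 highest and the lowest, with others named after their values were seen. Named ends were the 5 most abundant 5′ and 3′ ends. The annotation used names no 25S gene, so bins at its ends could not be named. The members and lists were chosen with earlier results of these data known. The limma fits were tested on simulated data with independent features. Features of these libraries are not independent, so that test does not give the error rates here. The tools were matplotlib 3.10.9, pandas 2.3.3, numpy 2.4.6 and Python 3.11.15, with DESeq2 1.42.0, edgeR 4.0.16 and limma 3.58.1 in R 4.3.3.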

Additional observations from a re-analysis of the deposited data

How the results depend on the processing

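The counts of 0 called bins and 0 called bins by length were the same in 18 alternatives each: pseudocounts of 0.5, 5 and 20, median of ratios scaling, a minimum mean of 20 or none, the same sum per length class, edgeR, DESeq2, 100-nt bins, the replicate block, each library left out in turn (0 in every case), and both first libraries left out, which was chosen after seeing the data. For single sequences the count was 0 in 16 of 17 alternatives and 1 with DESeq2. With the replicate number as a block 0 members were called. Libraries with the same number did not deviate together (r of -0.71, -0.30 and -0.53), and pairs with different numbers had r from -0.281 to 0.609. With 3 libraries per genotype, these values cannot tell whether the numbers mark a shared preparation. The ratio of summed values was 0.643 with median of ratios scaling, which raised WT replicate 1 most. As deposited, it was between 0.833 and 1.10 with a library left out. The difference in the 28 to 34 nt share was between -19.3 and -5.83 percentage points with a library left out and 0.432 without both first libraries; the 2 libraries left out are those with the highest and the lowest share. Members inside an annotated 25S gene were not run as an alternative, since the annotation used names none. Limits: lengths of 22 to 26 nt at the largest 3′ end and sequences under 20.07 in all libraries were not analysed here, and copies of the rRNA unit cannot be told apart.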
